A study of Mus musculus with 8 samples.

Results

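The 48 genes described here are the nuclear receptor PPARA and the genes of fatty acid oxidation and fatty acid handling that are known as its targets or work beside them. They were chosen by name from the 55401 genes of the deposited table, all 48 were found in it, and all 48 passed the filter on low values and were tested. By role they are the receptor itself, 5 genes of fatty acid uptake, storage and fuel choice, 5 carnitine acyltransferases and carriers, 5 genes that make or split acyl-CoA, 12 enzymes of mitochondrial beta-oxidation, 3 of the electron transfer flavoprotein system, 11 of peroxisomal oxidation and 6 CYP4A hydroxylases.

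Poly(A) RNA from the kidneys of 8 diabetic mice, each with a library of its own, was sequenced to ask which genes differ in diabetic kidney disease after treatment with rFGF4, a recombinant FGF4. The rFGF4-treated group holds mice 1, 2, 3 and 5, and the vehicle-treated group holds mice 2, 3, 4 and 5. The labels and the design text call the animals db/db mice, which lack a working leptin receptor, become obese and develop type 2 diabetes, and they name the untreated group only as the db/db model. The study's text calls the sequenced animals STZ-induced diabetic mice, in which streptozotocin destroys the insulin-producing cells, and their controls PBS-treated vehicle mice. The files do not settle which of these models was sequenced, and the labels give no age, sex or dosing. The study states that its mice were male and describes injections of rFGF4 or PBS into the abdomen every other day, with no schedule given for the sequenced mice alone. There is no non-diabetic group among the samples used here, so levels in a healthy kidney cannot be set beside these values.

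Fatty acids enter mitochondria bound to carnitine, are shortened by repeated rounds of beta-oxidation, and pass their electrons to the respiratory chain through the electron transfer flavoprotein. Very long and branched fatty acids are first shortened in peroxisomes, and CYP4A enzymes hydroxylate fatty acids at the omega end. PPARA is a ligand-activated transcription factor that binds DNA with RXR and switches on genes of all these steps. In the kidney the pathway is most active in the proximal tubule, which relies on fatty acids for energy and holds much of the organ's PPARA.

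Expression was given by the authors as FPKM, fragments per kilobase of transcript scaled to the mapped fragments of the library, so levels of different genes may be compared per length. The number of fragments behind a value is unknown. The FPKM of all genes had a sum of 389404 to 529831 per library with rFGF4 and of 481318 to 552600 with vehicle. Group differences are given as log2(FPKM + 1), rFGF4-treated minus vehicle-treated, with the standard error (SE) of limma's moderated test, and they understate the change of genes at low FPKM. The study's threshold was an unadjusted p under 0.05 together with a fold change of at least 1.5 in either direction. Of the 15150 genes tested, 165 (1.09%) passed it as higher and 66 (0.436%) as lower in rFGF4-treated mice, and no gene (0%) had an adjusted p under 0.05 by limma, whereas 700 genes (4.62%) had an unadjusted p under 0.05. Once the libraries had been brought to a common median ratio, 93 genes passed as higher and 82 as lower.

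Among the 48 genes, 3 passed the study's threshold, all higher in rFGF4-treated mice: Ppara, Fabp1 and Pdk4. The same 3 were the members with an unadjusted p under 0.05 by limma's test, and none of the 48 had an adjusted p under 0.05, the smallest being 0.918. In none of the 48 genes were the groups free of overlap, against 504 of all genes tested (3.33%). The fitted difference was above 0 for 29 genes and below 0 for 19, with a median of 0.06, and it was above the median of all genes tested (0.09) for 21 of the 48. Over all genes tested 67.1% had a difference above 0, and counts of genes above 0 are to be read against that share. With libraries scaled in this way the median of the 48 genes was −0.07, on the other side of 0, and 2 genes passed, Fabp1 and Pdk4. Scaling also moved the median of all genes tested, from 0.09 to −0.01. Medians with scaled libraries are to be read against that value, and the share of 67.1% is that of the fit without scaling. Every p-value here sets the difference between the groups against the spread between mice of a group. With 4 mice against 4 an exact permutation test cannot give a p below 0.0286.

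Ppara encodes the receptor (gene chr15:85734983-85802819, plus strand). Its level was 3.26, 0.991, 4.63 and 2.19 FPKM in vehicle-treated mice 2, 3, 4 and 5, and 3.27, 7.86, 15.6 and 6.88 FPKM in rFGF4-treated mice 1, 2, 3 and 5. Treated mice 2, 3 and 5 lay above all vehicle-treated mice, while treated mouse 1 lay among them. The mean was 8.41 ± 5.20 FPKM (SD, n = 4) with rFGF4 and 2.77 ± 1.55 (SD, n = 4) with vehicle, 3.04 times as high. On the log2(FPKM + 1) scale the difference was 1.26 (SE 0.45, 95% interval 0.23 to 2.28), with an unadjusted p of 0.0220 and an adjusted p of 0.918 by limma and a two-sided exact permutation p of 0.0571. The call rested on single libraries: without vehicle-treated mouse 3 the difference was 0.98, without rFGF4-treated mouse 3 it was 0.93, and with scaled libraries it was 1.16, and in each of these fits it no longer passed.

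The 5 genes of uptake, storage and fuel choice all had fitted differences above 0, with a median of 0.98, and 2 of them passed the threshold. Their direction was the same with scaled libraries, where the median was 0.85. Fabp1 encodes the liver-type fatty acid-binding protein, which carries fatty acids in the cytosol. It measured 3.04, 1.04, 1.63 and 3.90 FPKM in vehicle-treated mice 2, 3, 4 and 5. In rFGF4-treated mice 1, 2, 3 and 5 it measured 7.16, 10.4, 4.41 and 3.36 FPKM. Treated mice 1, 2 and 3 lay above all vehicle-treated mice, and treated mouse 5 lay below vehicle-treated mouse 5. The difference was 1.09 (SE 0.37, 95% interval 0.24 to 1.95), with an unadjusted p of 0.0181 and an adjusted p of 0.918 by limma and an exact permutation p of 0.0571. Without vehicle-treated mouse 3 it was 0.87 and no longer passed (unadjusted p of 0.0502 by limma).

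Pdk4 encodes a kinase that switches off pyruvate dehydrogenase and so spares glucose while fatty acids are burned. Vehicle-treated mice 2, 3, 4 and 5 had 3.13, 15.7, 8.82 and 4.86 FPKM, and rFGF4-treated mice 1, 2, 3 and 5 had 20.3, 30.8, 16.1 and 10.8 FPKM. All 4 treated mice lay above vehicle-treated mice 2, 4 and 5, and treated mouse 5 lay below vehicle-treated mouse 3. The difference was 1.28 (SE 0.46, 95% interval 0.22 to 2.33), with an unadjusted p of 0.0232 and an adjusted p of 0.918 by limma and an exact permutation p of 0.0571. It lost the call when any of 4 libraries was left out, at 0.96 without vehicle-treated mouse 2, 1.13 without vehicle-treated mouse 5, 1.23 without rFGF4-treated mouse 1 and 1.04 without rFGF4-treated mouse 2.

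Plin2 coats lipid droplets. In vehicle-treated mice 2, 3, 4 and 5 it stood at 14.6, 30.0, 25.5 and 19.7 FPKM, and in rFGF4-treated mice 1, 2, 3 and 5 at 63.9, 65.3, 51.3 and 16.8 FPKM. Treated mice 1, 2 and 3 lay far above the highest vehicle-treated mouse, whereas treated mouse 5 was lower than 3 of the 4 vehicle-treated mice. The difference of 0.98 (SE 0.43, 95% interval −0.01 to 1.97) did not pass, with an unadjusted p of 0.0519 by limma and an exact permutation p of 0.114. Single libraries decided this: without rFGF4-treated mouse 5 the difference was 1.42 and passed, as it did without vehicle-treated mouse 3, at 1.13.

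The other 2 genes of this group did not pass. Vnn1, a pantetheinase known as a PPARA target, measured 27.6, 34.2, 41.8 and 20.7 FPKM in vehicle-treated mice 2, 3, 4 and 5 and 25.5, 53.4, 61.2 and 31.8 FPKM in rFGF4-treated mice 1, 2, 3 and 5, a difference of 0.41 (SE 0.32). This was 0.22 without rFGF4-treated mouse 3, 0.24 without vehicle-treated mouse 5 and up to 0.63 without rFGF4-treated mouse 1. Cd36, a fatty acid transporter of the cell surface, measured 10.98, 9.93, 16.2 and 9.26 FPKM with vehicle and 23.5, 6.71, 14.7 and 22.5 FPKM with rFGF4 in the same order of mice, a difference of 0.40 (SE 0.37). The lowest and the highest Cd36 values both belonged to treated mice, 2 and 1, and single libraries set the size of the difference: it was 0.76 and passed without treated mouse 2, and was 0.20 without treated mouse 1 and 0.22 without treated mouse 5. Averaged over the 5 genes and centred on the mean of the 8 mice, the group stood at −0.68, −0.24, −0.18 and −0.56 in vehicle-treated mice 2, 3, 4 and 5 and at 0.59, 0.69, 0.47 and −0.08 in rFGF4-treated mice 1, 2, 3 and 5, on the log2(FPKM + 1) scale.

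**Figure D1:**
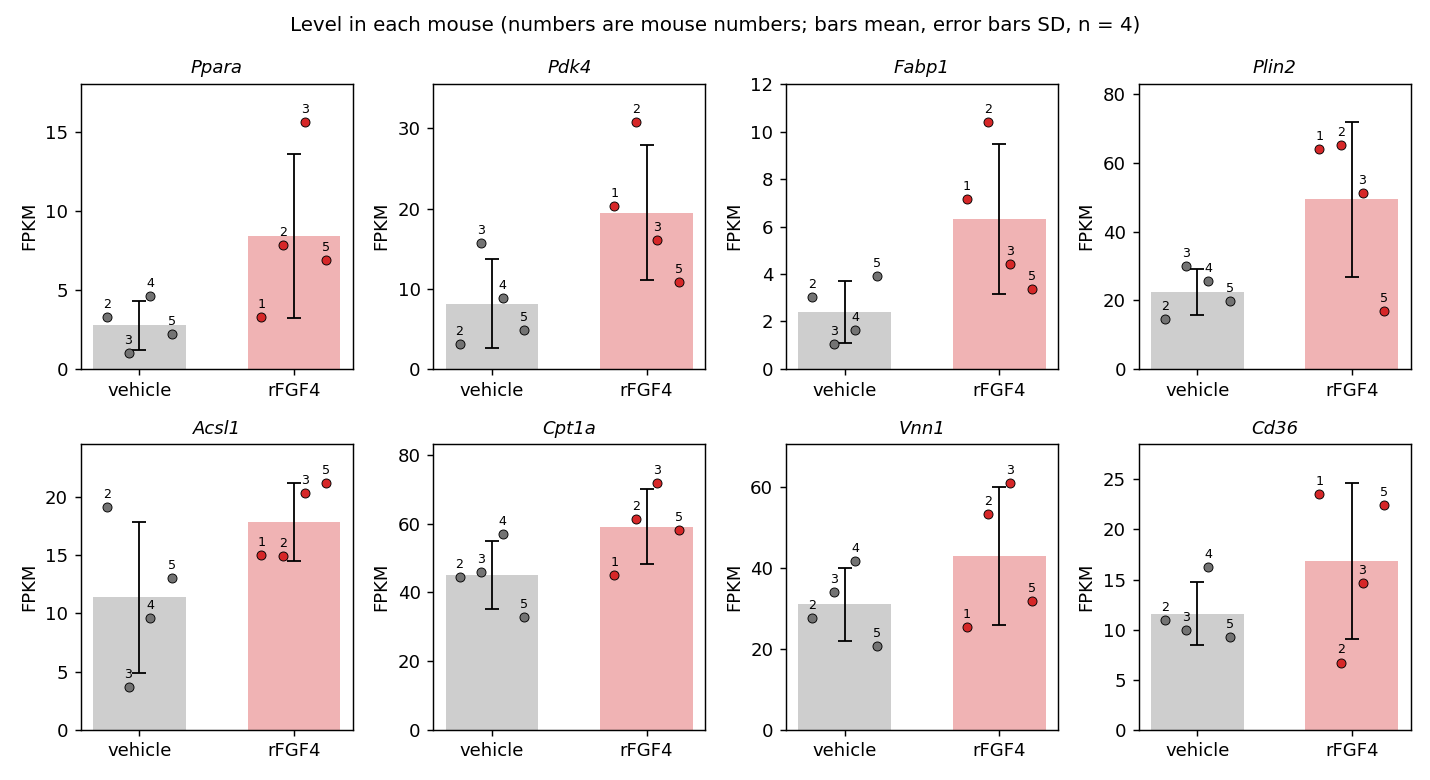
Level in FPKM (vertical axes, each starting at 0) of Ppara, the 5 genes of uptake, storage and fuel choice, Acsl1 and Cpt1a in the 4 vehicle-treated (grey) and 4 rFGF4-treated (red) mice. Points are mice marked with their number, bars are means and error bars are SD (n = 4). In Ppara, Pdk4, Fabp1, Plin2 and Cpt1a 3 of the 4 treated mice lay above every vehicle-treated mouse, and in each of the 8 genes the groups overlapped.

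Markers of other cells and states were measured beside these genes. Immediate early genes, which respond within minutes to stress and handling, had fitted differences above 0 in 9 of 9 tested genes, with a median of 0.86 and 1 unadjusted p under 0.05. Their summed level was 182, 215, 201 and 44.5 FPKM in rFGF4-treated mice 1, 2, 3 and 5 and 35.2 to 129 FPKM in vehicle-treated mice, so the treated mice with high sums were the 3 with high Plin2 and Fabp1, and mouse 5 was the lowest of the treated mice in all of them. Hepatocyte markers, some of which the kidney also makes, were above 0 in 5 of 7 tested genes with a median of 0.46 and 1 unadjusted p under 0.05, and summed to 425 to 819 FPKM with rFGF4 and 382 to 562 with vehicle. Clock output genes were above 0 in 6 of 9 with a median of 0.19 and 1 unadjusted p under 0.05. The part of these in the differences of Fabp1, Pdk4, Plin2 and Ppara was not tested. Of the 8 adipocyte markers Adipoq, Plin1, Retn, Lep and Cfd were under 0.5 FPKM in every library, with Retn at 0 in all. The list summed to 10.2 to 17.1 FPKM with rFGF4 and 14.4 to 19.6 with vehicle. In every library most of that sum came from Fabp4, whose values are given below, and most of the rest from Lipe.

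The stretch before a gene's start is shown for Fabp1 and Pdk4, which passed the threshold, and for Plin2 and Cd36, which belong to the same role group. Sequences and starts are from RefSeq on GRCm38.p6, each is cut to the bases outside annotated exons, and it is read 5′ to 3′ on the strand of the gene. The letters searched were DR1, AGGTCANAGGTCA, the repeat of 2 half-sites with 1 base between them that PPAR and RXR bind, on both strands of the 250 bases before each start. Capitals mark the closest match where it had at most 2 mismatches. Fabp1, Plin2 and Cd36 had such a match and Pdk4 did not. Ppara also passed the threshold, but its stretch is not shown, and its closest match had 4 mismatches. Fabp1 lies on the plus strand of chromosome 6 (gene chr6:71199827-71205023) and Pdk4 on its minus strand (gene chr6:5483351-5496309), while Plin2 (gene chr4:86648386-86670060) and Cd36 (gene chr5:17781690-17888801, the window being that of a start inside the gene) lie on the minus strand.
Fabp1, chr6:71199629-71199826, plus strand: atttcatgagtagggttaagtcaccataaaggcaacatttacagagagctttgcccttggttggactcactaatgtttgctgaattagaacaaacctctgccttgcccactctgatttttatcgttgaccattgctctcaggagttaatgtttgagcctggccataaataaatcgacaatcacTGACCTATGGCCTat
Plin2, chr4:86670061-86670309, minus strand: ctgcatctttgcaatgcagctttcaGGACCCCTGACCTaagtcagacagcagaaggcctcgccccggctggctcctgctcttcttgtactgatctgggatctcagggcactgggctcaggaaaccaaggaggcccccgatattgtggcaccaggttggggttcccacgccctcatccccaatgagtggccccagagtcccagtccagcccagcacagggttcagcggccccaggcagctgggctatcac
Cd36, chr5:17835897-17836146, minus strand: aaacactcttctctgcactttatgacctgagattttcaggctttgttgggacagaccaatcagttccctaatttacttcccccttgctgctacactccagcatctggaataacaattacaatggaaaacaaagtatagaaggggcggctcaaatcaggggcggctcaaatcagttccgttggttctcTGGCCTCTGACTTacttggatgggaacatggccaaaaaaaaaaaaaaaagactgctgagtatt
Pdk4, chr6:5496310-5496528, minus strand: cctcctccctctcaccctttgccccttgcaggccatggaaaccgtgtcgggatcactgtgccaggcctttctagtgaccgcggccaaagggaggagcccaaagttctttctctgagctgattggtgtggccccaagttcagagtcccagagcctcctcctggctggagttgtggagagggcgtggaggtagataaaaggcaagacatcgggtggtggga

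The set of RefSeq promoters used here held 38 of the 48 genes. A match with at most 1 mismatch was found in 2 of these 38, Fabp1 and Acot12, against 0.566% of the 27025 genes with a promoter, and with at most 2 mismatches in 6 of 38, adding Plin2, Cd36, Echs1 and Etfa, against 3.72% of all genes. An exact DR1 was found in 11 of those 27025 genes and in none of the 38. The 6 matches, each read in the orientation of DR1 with capitals for bases equal to it and small letters for the spacer and the mismatches, are shown with their position relative to the start so that they can be compared with the motif.
Fabp1, −67 to −55: AGGcCAtAGGTCA
Acot12, −110 to −98: AGGTgAgAGGTCA
Plin2, −225 to −213: AGGTCAggGGTCc
Cd36, −63 to −51: AaGTCAgAGGcCA
Echs1, −83 to −71: AGGTCAcgGGTCc
Etfa, −77 to −65: AGGgCAaAGGTaA

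The match in Fabp1 differed from DR1 in 1 base of the first half-site and lay in the gene with the smallest p of the 48. Echs1 and Etfa carried matches too, with differences of 0.02 and −0.09 between the groups. Pdk4 and Ppara had no match within 2 mismatches in their windows. A match of letters is a description and no evidence of binding, and its absence says only that these letters are not in the window.

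The 5 genes of the carnitine step had a median difference of 0.02, with 3 above and 2 below 0, and none of them passed. With scaled libraries the median was −0.11, with 1 above and 4 below 0. Cpt1a makes acylcarnitine at the outer mitochondrial membrane and limits the rate of fatty acid entry (gene chr19:3322334-3385733, plus strand). It measured 44.4, 46.0, 57.1 and 32.8 FPKM in vehicle-treated mice 2, 3, 4 and 5. In rFGF4-treated mice 1, 2, 3 and 5 it measured 45.2, 61.3, 72.0 and 58.2 FPKM, and 3 of these 4 exceeded every vehicle-treated mouse. The difference of 0.39 (SE 0.20, 95% interval −0.07 to 0.85) had an unadjusted p of 0.0839 by limma and an exact permutation p of 0.0857. It was 0.25 without vehicle-treated mouse 5 and 0.51 without rFGF4-treated mouse 1 or vehicle-treated mouse 4, where the unadjusted p by limma was under 0.05 and the fold change under 1.5. The inner-membrane partner Cpt2 was at 49.2 ± 12.7 FPKM with rFGF4 and 49.3 ± 8.41 with vehicle (SD, n = 4), and the carrier Slc25a20 between them at 15.4 ± 2.96 and 14.3 ± 3.84. Crat and Crot, the carnitine acyltransferases for short and medium chains, had differences of −0.12 and 0.02.

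Among the 5 genes that make or split acyl-CoA, 4 had differences above 0 and 1 below, with a median of 0.27 (0.16 with scaled libraries, where 3 were above 0), and none passed. Acsl1, which activates long-chain fatty acids, measured 19.2, 3.65, 9.64 and 13.04 FPKM in vehicle-treated mice 2, 3, 4 and 5 and 15.0, 15.0, 20.3 and 21.2 FPKM in rFGF4-treated mice 1, 2, 3 and 5. Treated mice 3 and 5 lay above all vehicle-treated mice and treated mice 1 and 2 lay within their wide range, and the difference was 0.78 (SE 0.41, 95% interval −0.16 to 1.71), with an unadjusted p of 0.0918 by limma. Without vehicle-treated mouse 2, the highest of its group, it was 1.07 and passed, and without vehicle-treated mouse 3, the lowest, it was 0.37. The thioesterase Acot12 was at 37.3 ± 14.7 FPKM with rFGF4 and 24.2 ± 9.13 with vehicle (SD, n = 4), a difference of 0.55 (SE 0.38), and 3 of 4 treated mice lay above all vehicle-treated mice. It passed without treated mouse 1, the lowest. Acot3, a peroxisomal thioesterase, went the other way, at 4.06 ± 0.84 and 6.25 ± 3.38 FPKM, a difference of −0.42 (SE 0.32) that passed without vehicle-treated mouse 5.

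The 12 enzymes of mitochondrial beta-oxidation were split evenly, 6 with differences above 0 and 6 below, between −0.42 for Acadsb and 0.15 for Hadha, with a median of 0.01. With scaled libraries 10 of the 12 were below 0 and the median was −0.12, against −0.01 for all genes tested. None had an unadjusted p under 0.05, the smallest being 0.256 by limma. Acadm, the medium-chain acyl-CoA dehydrogenase, measured 134, 84.7, 135 and 75.4 FPKM in vehicle-treated mice 2, 3, 4 and 5. It measured 47.7, 103, 103 and 132 FPKM in rFGF4-treated mice 1, 2, 3 and 5, and treated mouse 1 held the lowest value. The difference of −0.20 (SE 0.34, 95% interval −0.97 to 0.58) changed sign to 0.10 when that mouse was left out. Acadsb, which oxidises short branched chains, was at 5.72, 13.3, 5.60 and 3.78 FPKM with vehicle and 2.70, 5.07, 5.001 and 6.01 FPKM with rFGF4, and the high value of vehicle-treated mouse 3 stood alone. Without that mouse its difference was −0.11.

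Of the remaining 10 enzymes, 7 are given by their means (SD, n = 4, rFGF4-treated first). The dehydrogenases Acadl, Acadvl and Acads, for long, very long and short chains, were at 134 ± 11.7 and 123 ± 24.4, at 85.3 ± 15.2 and 85.8 ± 16.7, and at 32.0 ± 7.34 and 30.5 ± 7.01 FPKM. The trifunctional protein subunits Hadha and Hadhb were at 28.8 ± 4.96 and 25.8 ± 3.74 and at 19.5 ± 6.32 and 19.5 ± 3.72 FPKM. The later steps by Echs1 and Acaa2 were at 22.0 ± 4.36 and 21.8 ± 4.87 and at 187 ± 61.3 and 169 ± 44.4 FPKM. For each of these the difference between the means was smaller than the SD of the group with the larger spread. Hadh, the dehydrogenase for medium and short chains, and Decr1 and Eci1, which handle double bonds, differed by −0.10, 0.03 and −0.12. The 95% intervals of the 12 differences reached down to −1.22 for Acadsb and up to 0.81 for Acaa2, so changes of that size are not excluded by these 8 mice.

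The electron transfer flavoprotein takes electrons from the acyl-CoA dehydrogenases. Its subunits Etfa and Etfb and its dehydrogenase Etfdh had differences of −0.09, −0.15 and 0.16, with none past the threshold. Etfb measured 219, 242, 231 and 177 FPKM in vehicle-treated mice 2, 3, 4 and 5 and 144, 222, 199 and 226 FPKM in rFGF4-treated mice 1, 2, 3 and 5. Its lowest mouse was again treated mouse 1, and its difference had an SE of 0.19 and was −0.0025 without that mouse. Etfb shares 44.8% of its 50-base words with other annotated transcripts, nearly all with the overlapping gene Gm45233 on the same strand, so its level is uncertain. The same limit holds for Acaa1b (39.6%, mostly with Acaa1a), Acot2 (27.7%, mostly with Acot1) and Acadvl (26.9%, with the overlapping gene Dvl2).

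In the peroxisomal group 8 of the 11 genes had differences above 0, with a median of 0.07, and none passed; with scaled libraries 5 were above 0 and the median was −0.05. Hsd17b4, the bifunctional enzyme that handles branched chains and bile acid intermediates, measured 59.8, 46.7, 67.9 and 47.9 FPKM in vehicle-treated mice 2, 3, 4 and 5 and 58.6, 68.5, 80.4 and 64.0 FPKM in rFGF4-treated mice 1, 2, 3 and 5. Its difference of 0.29 (SE 0.16, 95% interval −0.08 to 0.66) had the smallest unadjusted p of the group, 0.108 by limma. Ehhadh, the bifunctional enzyme for straight chains and a PPARA target, measured 103, 78.8, 147 and 60.3 FPKM with vehicle and 49.2, 141, 130 and 114 FPKM with rFGF4 in the same order of mice. The lowest treated mouse, 1, lay below all vehicle-treated mice and the difference was 0.13 (SE 0.39), or −0.07 without vehicle-treated mouse 5 and −0.03 without rFGF4-treated mouse 2. Abcd3 and Pex11a, a peroxisomal fatty acid carrier and a factor of peroxisome division, had differences of 0.27 (SE 0.23) and 0.24 (SE 0.31). The largest difference below 0 belonged to Eci3, at 74.1 ± 38.6 FPKM with rFGF4 and 110 ± 38.6 with vehicle (SD, n = 4), where treated mouse 1 had 21.9 FPKM and the other treated mice 73.7 to 114. The oxidases Acox2 and Acox3 and the thiolases Acaa1a and Acaa1b had differences from −0.39 to 0.06.

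Of the CYP4A hydroxylases, Cyp4a10 and Cyp4a14 are among the genes most strongly induced by PPARA ligands in rodents. In these kidneys 5 of the 6 CYP4A genes had differences below 0 and 1 above, with a median of −0.23 (−0.35 with scaled libraries, with the same split), and none passed. Cyp4a10, the member with the highest mean level at 211 FPKM, measured 247, 202, 344 and 155 FPKM in vehicle-treated mice 2, 3, 4 and 5. In rFGF4-treated mice 1, 2, 3 and 5 it measured 124, 237, 145 and 230 FPKM, within or below the vehicle range, and the difference was −0.36 (SE 0.30, 95% interval −1.05 to 0.34). It was −0.16 without vehicle-treated mouse 4, −0.19 without rFGF4-treated mouse 1 and −0.54 without vehicle-treated mouse 5. Cyp4a14 measured 144, 143, 257 and 111 FPKM with vehicle and 191, 288, 164 and 183 FPKM with rFGF4 in the same order, a difference of 0.37 (SE 0.28, 95% interval −0.28 to 1.02) that was 0.61 and passed without vehicle-treated mouse 4, and was 0.20 without rFGF4-treated mouse 2 and 0.21 without vehicle-treated mouse 5. Thus the 2 most abundant CYP4A genes had fitted differences of opposite sign, and the intervals of both include 0. Cyp4a12a, which depends on androgen, was at 23.4 ± 13.6 FPKM with rFGF4 and 35.0 ± 19.4 with vehicle (SD, n = 4), with 3.73 FPKM in treated mouse 1 and 24.9 to 33.7 in the other treated mice. Members of this cluster on chromosome 4 share sequence: 20.6% to 49.4% of the 50-base words of Cyp4a10, Cyp4a12a, Cyp4a12b, Cyp4a31 and Cyp4a32 occur in another gene, so reads may be split between them, whereas Cyp4a14 shares 0.235%. Among all 48 genes 29 share under 5% of their words, Ppara and Fabp1 share none and Pdk4 shares 1.40%. The exons of 15 of the 48 overlap another annotated gene, Ppara, Fabp1, Pdk4, Plin2 and Cpt1a not among them, and whether strand was used in the quantification is not given in the sources used here.

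**Figure D2:**
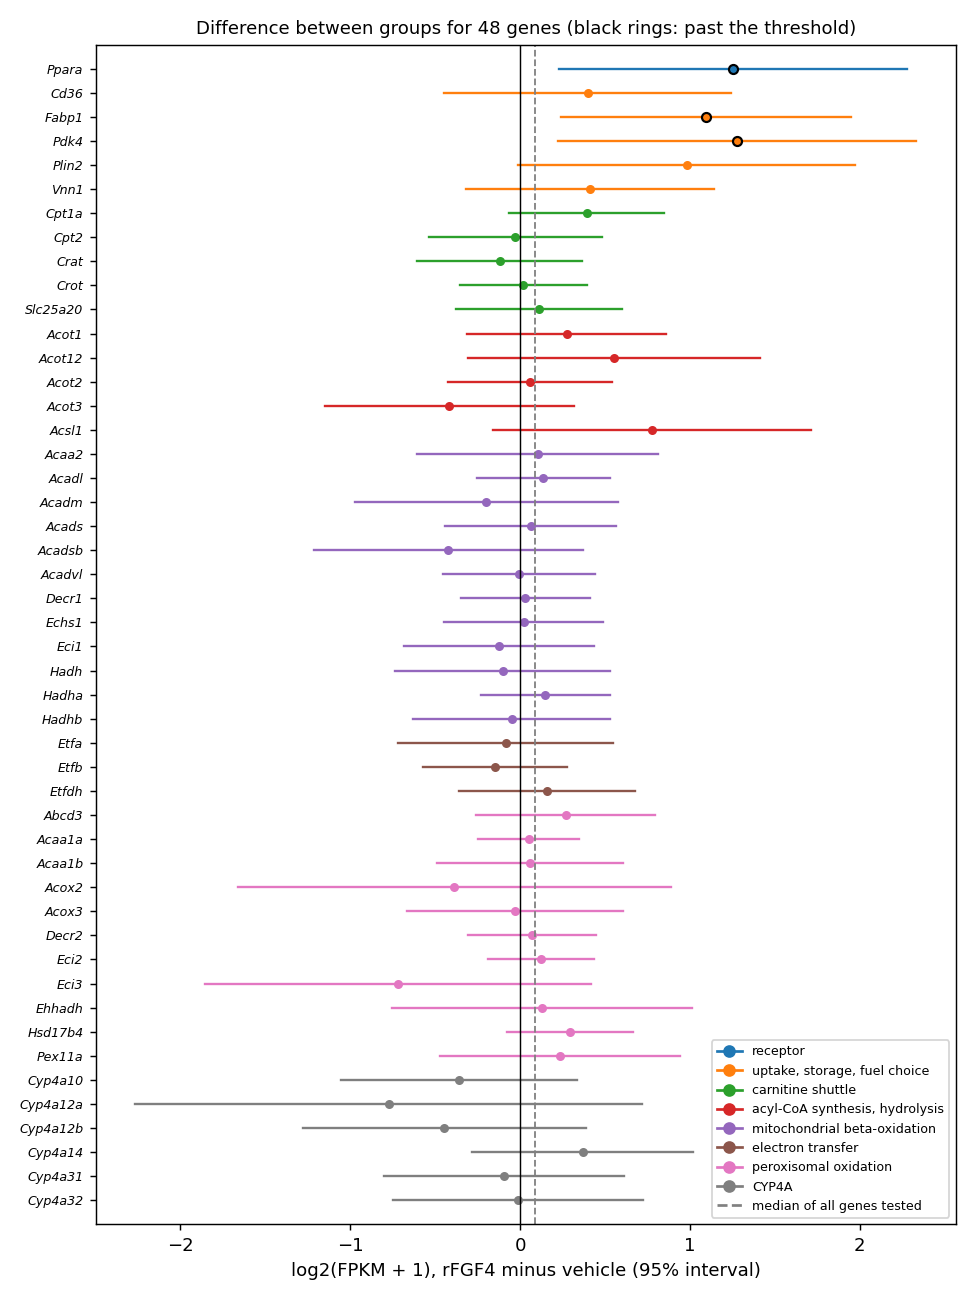
Difference of log2(FPKM + 1) between 4 rFGF4-treated and 4 vehicle-treated mice for the 48 genes (horizontal axis), with 95% intervals from limma and colours for the role groups. The dashed line is the median of all 15150 genes tested (0.09). Only the intervals of Ppara, Fabp1 and Pdk4, drawn with black rings, do not include 0, and the genes of the oxidation groups lie on both sides of it.

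Without Ppara and the 5 genes of uptake, storage and fuel choice, 42 genes of the oxidation pathway remain, and in 27 of them the group means lay within 1.2-fold of each other. The share of all genes tested within 1.2-fold was not counted. The role groups were chosen with earlier results of these data known, and Ppara, Fabp1 and Pdk4, which passed, are among the genes set aside. The median SD within groups on the log2(FPKM + 1) scale was 0.43 for the 48 genes and 0.27 for all genes tested. By mean level over the 8 mice the 48 genes ran from 4.37 FPKM for Fabp1 to 211 FPKM for Cyp4a10, and the level of the median member was at or above that of 90.25% of the genes tested.

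The mouse-to-mouse variation was shared across the pathway. Of the 42 genes 24 were lowest in rFGF4-treated mouse 1 and 14 in vehicle-treated mouse 5, 38 of 42 in all, while these mice held the lowest value of 10.8% and 5.92% of all genes tested. The highest value fell in vehicle-treated mouse 4 for 18 genes and in rFGF4-treated mouse 3 for 13, against 5.11% and 7.87% of all genes tested. Averaged over the 42 genes and centred, the mice stood at 0.09, −0.10, 0.38 and −0.36 for vehicle-treated mice 2, 3, 4 and 5 and at −0.56, 0.14, 0.22 and 0.19 for rFGF4-treated mice 1, 2, 3 and 5. Treated mice 2, 3 and 5 lay within the vehicle range, between vehicle-treated mice 2 and 4, and treated mouse 1 lay below it. Of the 5 genes of uptake, storage and fuel choice, Vnn1 was also lowest in vehicle-treated mouse 5 and rFGF4-treated mouse 1. The other 4 were not: treated mouse 1 was the highest or second highest of the 8 mice for Cd36, Fabp1, Pdk4 and Plin2, and it held the highest value of 48.1% of all genes tested.

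**Figure D3:**
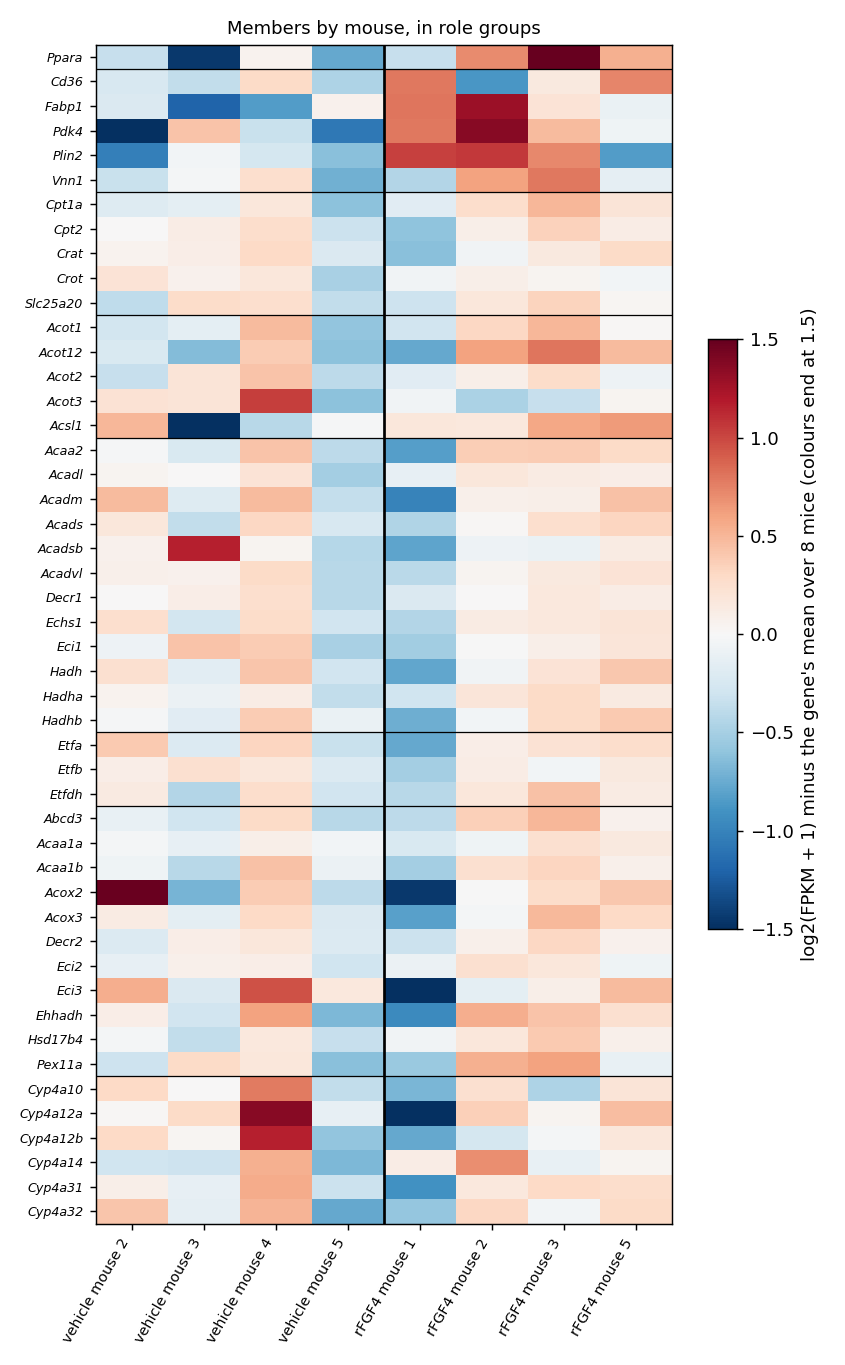
Log2(FPKM + 1) of each of the 48 genes (rows, in role groups separated by lines) minus its mean over the 8 mice (columns, vehicle-treated left and rFGF4-treated right of the black line), with colours that end at 1.5 in either direction. Columns of rFGF4-treated mouse 1 and vehicle-treated mouse 5 are blue in most rows below the first 6, while the rows of Fabp1, Pdk4 and Plin2 are red in treated mice 1 to 3.

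The markers of the proximal tubule, where the oxidation genes are mainly expressed, were by their mean also lowest in rFGF4-treated mouse 1 and highest in vehicle-treated mouse 4, but the order of the other mice differed, and among vehicle-treated mice mouse 3 was the lowest and not mouse 5. The mean of the 12 markers, centred in the same way, was 0.48, −0.38, 0.66 and −0.16 in vehicle-treated mice 2, 3, 4 and 5 and −1.58, −0.02, 0.55 and 0.45 in rFGF4-treated mice 1, 2, 3 and 5. Their summed level was 1434 to 7367 FPKM with rFGF4, the lowest in mouse 1, and 4384 to 9108 FPKM with vehicle, most of it from Kap. None of the 12 was absent: the phosphate transporter Slc34a1 was at 136 FPKM in treated mouse 1 and at 483 to 824 FPKM in the other 7 mice. Fewer proximal tubule cells and less RNA per cell cannot be told apart in whole kidney. Between groups 10 of the 12 markers had differences below 0, with a median of −0.30 and none with an unadjusted p under 0.05. With the marker mean as a covariate in limma's fit, an alternative added after the data were seen, 4 genes passed the threshold (Ppara, Fabp1, Pdk4 and Acot12), against 1.57% of all genes tested in that fit. Without rFGF4-treated mouse 1 and vehicle-treated mouse 5 there were also 4 (Ppara, Fabp1 and Acot12 higher, Acot3 lower), against 1.84% of all genes, while Pdk4 at 1.08 no longer passed. Acadm moved from −0.20 to −0.05 and Ehhadh from 0.13 to 0.27 when both libraries were left out.

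Immune cell markers were highest in rFGF4-treated mouse 1 and vehicle-treated mouse 5. Macrophage markers summed to 1275 FPKM in rFGF4-treated mouse 1 and 1808 in vehicle-treated mouse 5, against 47.2 to 460 in the other 6 mice, and 8 of 8 had differences above 0 with a median of 0.43 and no unadjusted p under 0.05. B lymphocyte and plasma cell markers summed to 23892 FPKM in vehicle-treated mouse 5, 2816 in rFGF4-treated mouse 1 and 27.5 to 1462 in the others. All 8 endothelial markers had differences below 0, with a median of −0.24 and 1 unadjusted p under 0.05, and summed to 54.9 to 93.8 FPKM with rFGF4 and 70.8 to 108 with vehicle. The part of cell composition in the oxidation values was not tested beyond leaving out both libraries and the covariate.

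**Figure D4:**
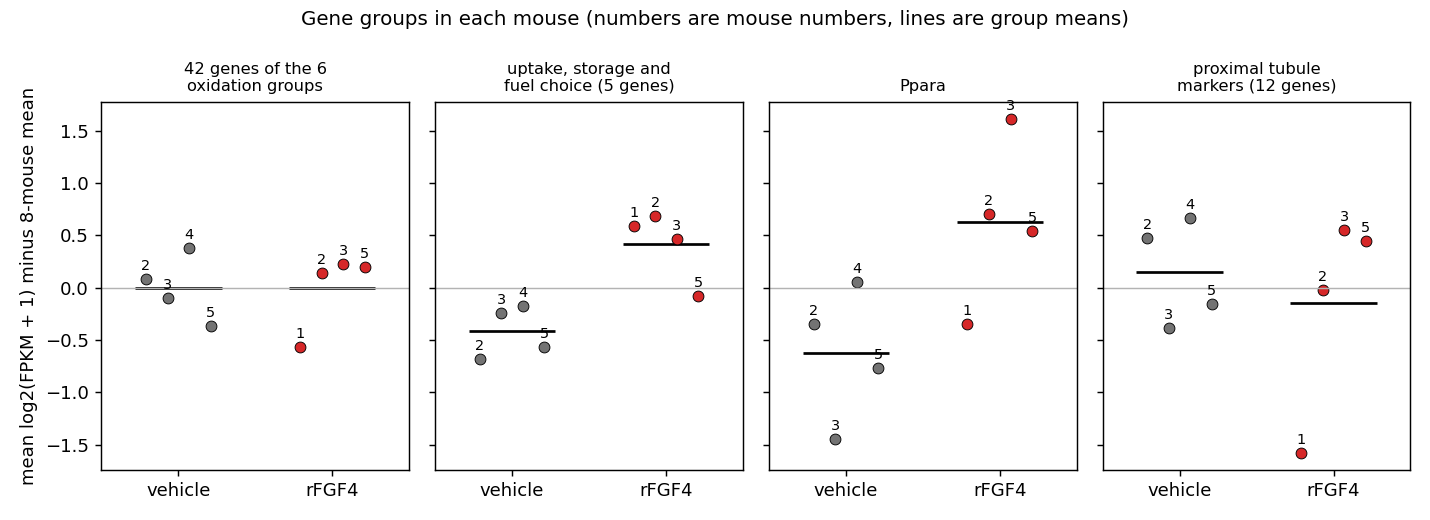
Mean of log2(FPKM + 1) minus the 8-mouse mean (vertical axis) for the 42 oxidation genes, the 5 genes of uptake, storage and fuel choice, Ppara and the 12 proximal tubule markers, in each vehicle-treated (grey) and rFGF4-treated (red) mouse. Numbers are mouse numbers and lines are group means. Treated mouse 1 is the lowest point in the first and last panels, at −0.56 and −1.58, but not in the second, where it is at 0.59.

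Other genes of PPARA action were read from lists of whole functional groups. Of the 18 tested partners and coregulators of PPARs, 14 had differences above 0, with a median of 0.23, against 67.1% of all genes tested. An unadjusted p under 0.05 by limma was found in 2 of the 18, both higher, against 4.62% of all genes tested. Rxra, the partner with which PPARA binds DNA, measured 14.8, 13.7, 15.0 and 13.8 FPKM in vehicle-treated mice 2, 3, 4 and 5 and 16.5, 22.4, 25.1 and 16.1 FPKM in rFGF4-treated mice 1, 2, 3 and 5. Its groups did not overlap, and the difference of 0.43 (SE 0.16) had an unadjusted p of 0.0252 and an adjusted p of 0.918 by limma and an exact permutation p of 0.0286, the smallest possible. It lost the unadjusted p under 0.05 with scaled libraries (0.31) and without vehicle-treated mouse 3 (0.41), vehicle-treated mouse 5 (0.41), rFGF4-treated mouse 2 (0.37) or rFGF4-treated mouse 3 (0.32).

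Ncoa3, a coactivator, passed the threshold at 9.02 ± 1.22 FPKM with rFGF4 and 5.73 ± 1.77 with vehicle (SD, n = 4), a difference of 0.61 (SE 0.22) with an adjusted p of 0.918 by limma and no overlap. It lost the call with scaled libraries (0.49) and without rFGF4-treated mouse 1 (0.54), and without vehicle-treated mouse 5 (0.40) its fold change was under 1.5. Lpin2, named after its values were seen, had a difference of 0.59 and an unadjusted p of 0.0648 by limma. It was the third of the 18 genes without overlap, against 3.33% of all genes tested. Without rFGF4-treated mouse 1 the difference was 0.30, and without rFGF4-treated mouse 2 (0.70) or 3 (0.72) it passed.

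The 31 tested enzymes and transporters of fatty acid oxidation outside the 48 had a median difference of −0.00, with 15 above and 16 below 0. Acsl4, which activates arachidonic acid, passed the threshold at 12.3 ± 4.97 FPKM with rFGF4 and 5.81 ± 1.28 with vehicle (SD, n = 4), a difference of 0.90 (SE 0.30). Its groups overlapped, treated mouse 5 being at 5.96 FPKM, and it lost the call with the shared mouse numbers as a block (0.59). Slc27a4, a fatty acid transport protein, was at 12.8 to 14.8 FPKM with rFGF4 and 9.86 to 12.1 FPKM with vehicle without overlap, a difference of 0.32 (SE 0.11) that was 0.20 with scaled libraries and 0.28 with the block, with no p under 0.05 in either. The adjusted p of both was 0.918 by limma. Ketone body enzymes (5 tested, median 0.02) and the other pyruvate dehydrogenase kinases and phosphatases (5 tested, median −0.04) held no gene with an unadjusted p under 0.05, so among the tested kinases of this family Pdk4 alone passed.

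Of 15 tested lipid droplet and lipolysis genes, 9 had differences above 0, with a median of 0.13, and 1 passed, lower in rFGF4-treated mice. This was Fabp4, the fatty acid-binding protein of adipocytes and capillary endothelium, at 16.5, 15.3, 11.9 and 10.8 FPKM in vehicle-treated mice 2, 3, 4 and 5 and 6.97, 6.44, 5.69 and 13.4 FPKM in rFGF4-treated mice 1, 2, 3 and 5. Treated mouse 5 lay within the vehicle range, and the others lay below it. The difference was −0.73 (SE 0.26), opposite in sign to that of Fabp1, with an adjusted p of 0.918 by limma, and it lost the call without vehicle-treated mouse 2 (−0.64) or 3 (−0.67) or rFGF4-treated mouse 2 (−0.66) or 3 (−0.60), and with the shared mouse numbers as a block (−0.74).

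Sets of the KEGG annotation in the deposited table cover the pathway more widely. Fatty acid degradation had a median difference of 0.02 over its 16 tested genes outside the 48, of which only Acsl4 passed. Peroxisome had a median of 0.01 over 63 such genes, of which only Acsl4 passed. PPAR signaling pathway had a median of 0.16 over 42 such genes, with 30 above 0. Its genes with an unadjusted p under 0.05 by limma included Apoa1, Acsl4, Rxra and Slc27a4, which were higher, and Fabp4, which was lower. Apoa1, named after its values were seen, is the main protein of high-density lipoprotein and a PPARA target in human liver. It measured 3.47, 1.79, 1.45 and 3.42 FPKM in vehicle-treated mice 2, 3, 4 and 5 and 6.42, 8.88, 9.19 and 3.75 FPKM in rFGF4-treated mice 1, 2, 3 and 5, without overlap, a difference of 1.18 (SE 0.30) with an adjusted p of 0.918 by limma.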

How the data were processed

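Poly(A) RNA of 8 kidneys was sequenced as paired ends. The submitters' processing notes list HISAT2 2.0, Bowtie 0.12.2, StringTie 1.3.0 and the build mm8. The authors assembled transcripts with StringTie and merged them with gffcompare, and, as deposited by the authors, the values are FPKM per gene for 55401 genes, without counts, so depth is unknown. Of these identifiers 55141 are in GENCODE M21 (GRCm38), whose coordinates are used here. The authors' fold changes, p-values and calls in the same table were not used.

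Values at or below 0.0001 were set to 0. Genes with at least 0.5 FPKM in 4 or more libraries were compared as log2(FPKM + 1) by the moderated test of limma 3.58.1 (R 4.3.3), letting the prior variance follow the mean, and p-values were adjusted by Benjamini-Hochberg over all of them. The study's own test works on counts, which were not used here. The procedure was tested on simulated data. For single genes a two-sided exact permutation test was added.

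The 48 genes, the role groups and the other lists were chosen with earlier results of these data known. Named with a value in every mouse were members with an unadjusted p under 0.05 or no overlap between groups, the member with the smallest p of each role group, and 11 genes named in advance (Ppara, Cpt1a, Acadm, Ehhadh, Cyp4a10, Cyp4a14, Pdk4, Plin2, Cd36, Vnn1 and Fabp1). Genes of the other lists were named at an unadjusted p under 0.05. The result of 1 gene of the wider sets is not reported here. Acot12, Acot3 and other members given as means were chosen after their values were seen.

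The alternatives were a pseudocount of 0.1, no filter, a mean of at least 1 FPKM, scaling to a common median ratio, no trend, a block for the shared mouse numbers and each mouse left out. Same-numbered mice did not deviate together. Shared 50-base words and DR1 matches were counted on GENCODE M21 transcripts and RefSeq promoters of GRCm38.p6. Plots were made in Python 3.11.15 using matplotlib 3.10.9.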

Additional observations from a re-analysis of the deposited data

Results flagged for a closer look

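The mean of the 42 oxidation genes was marked because 1 rFGF4-treated mouse stood far from the others. Mouse 1 was at −0.56 and mice 2, 3 and 5 were at 0.14 to 0.22, so the gap between mouse 1 and its nearest neighbour was 0.893 of the range of the group, above Dixon's 95% critical value for 4 values. In all 32 groups of 4 values were examined and this 1 was past the limit. Chance passes about 1 group in 20. In the same mouse the proximal tubule markers were at −1.58 and the macrophage markers summed to 1275 FPKM. The part of these in the low oxidation values was not tested.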

How the results depend on the processing

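Of the 240 values of the 15 genes named in every mouse under 16 alternatives, 214 kept their direction and their side of the threshold, 11 lost the threshold, 9 gained it and 6 changed sign. The number of the 48 genes past the threshold was 2 to 4 when each mouse was left out, 3 with another pseudocount, another filter or no trend, 2 with scaled libraries and 7 with the replicate block (Acot1, Acot12, Cpt1a, Cyp4a14, Ehhadh, Ppara and Vnn1, against 1.73% of all genes in that fit), where Fabp1 (0.91) and Pdk4 (1.33) lost the call and the median of the 48 genes was 0.32. The block could not use rFGF4-treated mouse 1 and vehicle-treated mouse 4, whose numbers are not shared, and same-numbered mice deviated in opposite directions (r across genes of −0.229, −0.155 and −0.393 for mice 2, 3 and 5), so the numbers are not taken as pairs. Under the block Acadm (0.23), Cyp4a10 (0.010) and Etfb (0.030) changed sign. With each mouse left out Acadm ranged from −0.38 to 0.10 and Ehhadh from −0.073 to 0.47. Over all genes tested, 231 passed in the fit reported, 348 with a pseudocount of 0.1, 565 without rFGF4-treated mouse 5 and 419 without vehicle-treated mouse 5. With each mouse left out the median of the 48 genes ranged from −0.04 (without vehicle-treated mouse 5) to 0.19 (without rFGF4-treated mouse 1), with −0.01 without rFGF4-treated mouse 3 and 0.17 without vehicle-treated mouse 4. In the same order the median of all genes tested was 0.15, 0.01, 0.13 and 0.06. With the block it was −0.02. No member had an adjusted p under 0.05 by limma under any of these alternatives or those added after the data were seen, where the smallest was 0.254 (without rFGF4-treated mouse 5) and 2 to 10 of the 48 had an unadjusted p under 0.05. The cause of these changes was not tested. Depth is unknown, and the intervals come from 4 mice a group.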
